A study of Homo sapiens with 6 samples.

Results

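The 28 genes described here make cholesterol and fatty acids or control their making. They were chosen by name as the enzymes and regulators of these pathways, and all 28 were found among the 26364 genes of the raw count table. They comprise 6 genes of the mevalonate steps (HMGCS1, MVK, PMVK, MVD, IDI1, FDPS), 11 of the squalene and sterol steps (FDFT1, SQLE, LSS, CYP51A1, TM7SF2, MSMO1, NSDHL, HSD17B7, EBP, SC5D, DHCR7), 7 of the fatty acid steps (ACLY, ACSS2, ACACA, FASN, SCD, FADS1, FADS2) and 4 of regulation and sterol transfer (SREBF1, SREBF2, INSIG1, STARD4).

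RNA-seq had been done on Ishikawa cells, an established line from an endometrial adenocarcinoma that carries the estrogen receptor, to ask what loss of the ETS-family transcription factor ETV4 does to expression. There were 6 libraries from 3 lines: the parental line and 2 knockout lines of ETV4, each of which is 1 clone. Each line was sampled with the vehicle (DMSO at 0.1%) and with estradiol (E2) at 10 nM, 1 library each, so a parental group is 1 library and a knockout group is 2 clones. All cells, controls included, had spent 5 days in hormone-depleted medium. The treatment time is 8 h in the protocol but 1 h in the sample characteristics. Genotype and line cannot be told apart, because the only cells with intact ETV4 are 1 parental line. Nothing in the labels gives repeated cultures of a line, so p-values measure only the spread between these libraries.

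Cholesterol is built from acetyl-CoA by way of mevalonate and isoprene units to squalene, which is closed to lanosterol and then trimmed to cholesterol. Fatty acids are built from the same acetyl-CoA by carboxylation, elongation and desaturation. Most of these genes are driven by the factors made from SREBF2, which acts mainly on sterol genes, and SREBF1, which acts mainly on fatty acid genes. Both are held in the endoplasmic reticulum by INSIG proteins when sterols are plentiful, so the enzymes of a pathway often move together.

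RefSeq windows (build GRCh38.p14) from 250 bases before to 50 after each start were matched for 25 of the 28 genes, and FDFT1, SQLE and FASN are named only. A CCAAT box (CCAAT on either strand), bound by NF-Y, was present in 21 of the 25 (84%) and in 39.7% of all 27305 genes with a window. The ETS core CCGGAA, the kind of site that ETV4 recognises, was in 6 of 25 (24%) against 20.1% of all genes. The E-box CACGTG was in 3 of 25 (12%) against 8.77%. The sterol regulatory element, searched as TCACNCCAC, was in 1 of 25 (SREBF2, 4%) against 1.39%. The palindromic consensus of the estrogen response element was in 0 of 25 against 0.0732%. These are matches of letters on both strands, not measured binding, and none of the motifs contains another.

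The 170 bases before the start are shown for MSMO1, SC5D, HSD17B7, STARD4 and LSS, and for SREBF2, the only gene with the sterol element. All but SREBF2 were called by the test of the interaction of E2 and genotype with line as a block, given below. FASN was called there too but had no window. MSMO1, SC5D, HSD17B7 and STARD4 had their lowest library in the parental line in E2, as did many others of the 28. LSS had its lowest library in the parental line in DMSO. Capitals mark CCAAT boxes, written as ATTGG when on the other strand, and in SREBF2 also the sterol element. The stretch of MSMO1 holds 3 CCAAT boxes, that of STARD4 holds 2, and those of SC5D, HSD17B7, LSS and SREBF2 hold 1 each.
MSMO1 (chr4:165327499-165327668, plus strand): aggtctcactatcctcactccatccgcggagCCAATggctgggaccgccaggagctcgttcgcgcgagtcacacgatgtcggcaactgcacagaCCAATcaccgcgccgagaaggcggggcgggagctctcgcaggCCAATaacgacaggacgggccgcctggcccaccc
SC5D (chr11:121292601-121292770, plus strand): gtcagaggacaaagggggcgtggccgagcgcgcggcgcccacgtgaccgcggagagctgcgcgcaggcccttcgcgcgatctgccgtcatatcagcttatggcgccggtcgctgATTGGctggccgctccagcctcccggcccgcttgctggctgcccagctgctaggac
HSD17B7 (chr1:162790532-162790701, plus strand): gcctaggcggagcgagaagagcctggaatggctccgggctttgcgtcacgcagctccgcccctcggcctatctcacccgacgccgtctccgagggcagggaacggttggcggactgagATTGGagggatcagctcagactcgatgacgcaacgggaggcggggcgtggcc
STARD4 (chr5:111512536-111512705, minus strand): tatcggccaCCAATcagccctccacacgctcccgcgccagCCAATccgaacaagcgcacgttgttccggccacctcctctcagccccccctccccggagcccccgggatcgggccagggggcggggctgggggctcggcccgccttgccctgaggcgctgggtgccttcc
LSS (chr21:46228775-46228944, minus strand): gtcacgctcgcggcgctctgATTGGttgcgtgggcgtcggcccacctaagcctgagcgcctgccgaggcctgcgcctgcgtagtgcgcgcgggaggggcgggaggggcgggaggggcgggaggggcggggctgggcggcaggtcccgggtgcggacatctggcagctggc
SREBF2 (chr22:41832935-41833104, plus strand): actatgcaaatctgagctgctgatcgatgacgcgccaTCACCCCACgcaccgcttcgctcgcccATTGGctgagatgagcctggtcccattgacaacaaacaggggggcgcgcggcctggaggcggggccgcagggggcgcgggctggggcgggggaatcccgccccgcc

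The libraries held 28037392 to 36829479 counts, and the 28 genes together took 0.611% to 0.823% of each. Every one of them had at least 424 counts in every library and passed the filter on low counts, so none was lost from the tests. Levels are given as CPM, counts scaled by library size after TMM scaling (edgeR's correction for library composition). Levels of different genes are not compared, since CPM is not per length. ETV4 itself stood at 19.7 and 28.4 CPM in the parental libraries and at 2.41 to 3.42 CPM in the 4 clone libraries. The estrogen targets PGR and GREB1 rose by 3.94 and 2.96 on the log2 scale in E2. All 7 epithelial markers were detected in every library (summed 2487 to 3421 CPM), including ESR1. Stromal markers summed to 46.1 to 85.1 CPM, most of it COL1A1, with DCN, LUM and PDGFRB near 0. COL3A1 was at 7.93 and 9.73 CPM in the parental libraries and at 1.33 to 3.33 CPM in the clones, and its part in the results was not tested. Leukocyte markers (2.29 to 4.68 CPM, CD3E at 0) and endothelial ones (1.61 to 3.98 CPM) were low.

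**Figure D1:**
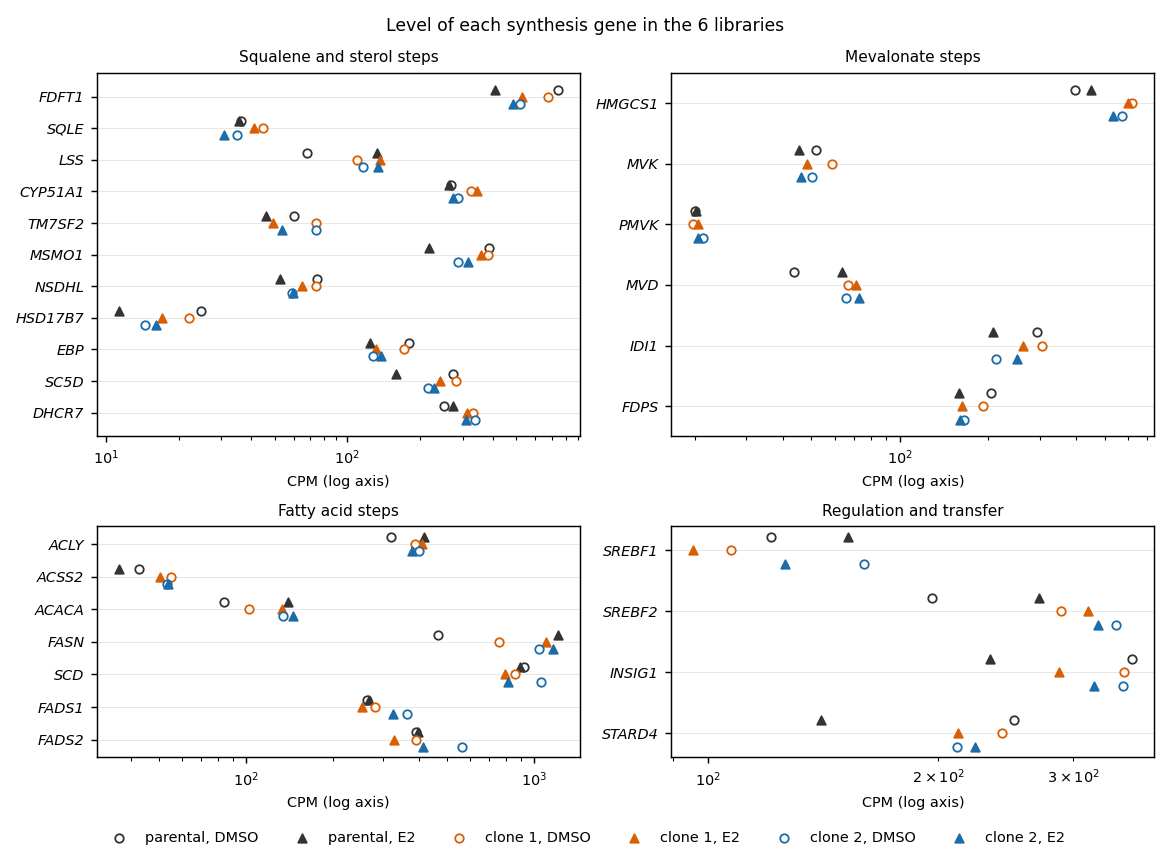
Level of each of the 28 genes in the 6 libraries, in CPM on a log axis, grouped by role. Open circles are DMSO and filled triangles are E2; black is the parental line, orange clone 1 and blue clone 2. For FASN the parental DMSO library (465 CPM) is the lowest, and for MSMO1, SC5D and STARD4 the parental E2 library is the lowest.

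The first comparison asked how the genes differ with ETV4 knocked out, with treatment in the model. HMGCS1, which makes HMG-CoA, was at 398 and 448 CPM in the parental line in DMSO and E2. It was at 622 and 601 CPM in clone 1 and at 573 and 536 CPM in clone 2, so all 4 clone libraries lay above both parental ones. Its log2 difference was 0.47 (SE 0.15, adjusted p = 0.321 by edgeR's quasi-likelihood test, Benjamini-Hochberg over 15611 genes). MVD, which makes isopentenyl diphosphate, was at 43.5 and 63.5 CPM in the parental line, at 66.4 and 71.0 CPM in clone 1 and at 65.5 and 72.4 CPM in clone 2. Its difference was 0.38 (SE 0.14, adjusted p = 0.379, same edgeR test), again without overlap. The regulator SREBF2 was at 196 and 271 CPM in the parental line, 289 and 314 CPM in clone 1 and 342 and 324 CPM in clone 2, a difference of 0.45 (SE 0.17, adjusted p = 0.380, same edgeR test).

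With these 3, the acetyl-CoA synthetase ACSS2 (0.43), the last-step reductase DHCR7 (0.30) and the lanosterol demethylase CYP51A1 (0.20) made up 6 of 28 genes whose 4 clone libraries all lay above both parental libraries (8.53% of all genes). The same 6 stood apart under each other scaling, and 1 or 2 more joined them after a correction for GC content and length. None of the 28 had all 4 clone libraries below the parental ones (7.80% of all genes). None of the 28 passed the knockout test (0.327% of all genes did, by edgeR), nor with line as a random block (0.295%). At an unadjusted p under 0.05 there were 4 genes by edgeR and 5 by DESeq2 and by limma-voom, and those 2 tools also called 0 after adjustment. The share of all genes at an unadjusted p under 0.05 was not counted, so whether these counts exceed it is not known.

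INSIG1, which retains the SREBP factors, was at 359 and 234 CPM in the parental line, 350 and 287 CPM in clone 1 and 349 and 320 CPM in clone 2. Its 3 DMSO libraries were nearly level. SREBF1 was at 121 and 152 CPM in the parental line, 107 and 95.6 CPM in clone 1 and 160 and 126 CPM in clone 2, so the clones lay on either side of the parental line in DMSO and both below it in E2.

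The other mevalonate genes kept to narrower ranges. PMVK, the phosphomevalonate kinase, lay between 19.8 and 21.3 CPM in all 6 libraries. MVK, the mevalonate kinase, lay between 45.4 and 58.8 CPM, and FDPS, the farnesyl diphosphate synthase, between 159 and 205 CPM. IDI1, the isopentenyl diphosphate isomerase, ran from 208 CPM in the parental line in E2 to 307 CPM in clone 1 in DMSO. Among fatty acid genes, SCD ran from 794 to 1061 CPM, ACLY, which splits citrate to acetyl-CoA, from 320 to 416 CPM, and FADS1, the delta-5 desaturase, from 253 to 363 CPM. For ACLY the parental line held both the lowest library (DMSO) and the highest (E2). Knockout differences of these 7 genes lay between -0.09 (FDPS) and 0.20 (FADS1) on the log2 scale, and none passed the test.

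In E2, all 6 mevalonate and all 11 sterol genes were higher in clone 1 than in the parental line, and 16 of these 17 were higher in clone 2, the exception being the squalene epoxidase SQLE. Of all genes, 50.1% and 53.5% were higher. The excess was small for some, from 0.03 to 0.71 on the log2 scale in clone 1 and from -0.20 to 0.53 in clone 2, with medians of 0.21 and 0.18 over the 17. Both clones were read against the same single parental E2 library, so the counts are not independent of each other and have no replicate check. The counts of 17 and 16 were the same under each other scaling and after the GC and length correction in both its forms. In DMSO the same 17 genes were split, 10 higher and 7 lower in clone 1 and 7 higher and 10 lower in clone 2. With the correction for GC content and length, 11 in clone 1 were higher with median transcripts and 16 of 17 with longest transcripts, and in clone 2 the counts were 7 and 11. The fatty acid genes did not share the order in E2, with 1 of 7 higher in clone 1 and 4 of 7 in clone 2.

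**Figure D2:**
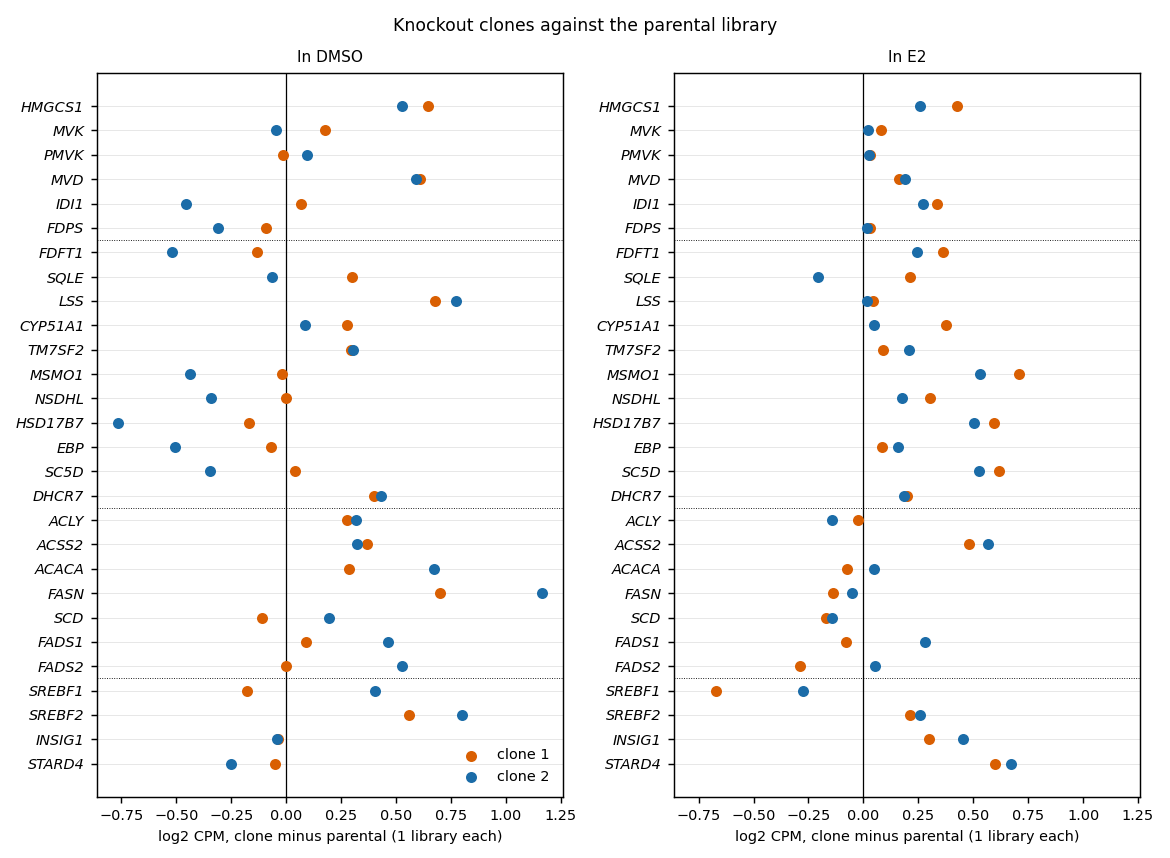
Log2 CPM of each clone minus the parental library for the 28 genes, in DMSO (left) and in E2 (right), 1 library per value. Orange is clone 1, blue is clone 2, and dotted lines part the role groups. In E2 the 17 mevalonate and sterol genes lie right of 0 in both clones, except SQLE in clone 2 at -0.20.

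The next comparison was of E2 with DMSO. In the parental line the sterol genes mostly were lower in E2, with a median log2 difference of -0.51 over the 11 genes and 9 of them lower. The median over all genes was 0.00. Clone 1 also had 9 of the 11 lower, with a median of -0.20 against -0.01 over all genes. Clone 2 had 5 lower and 6 higher, with a median of 0.01 against 0.03. After removal of each library's trend in GC content and transcript length, the parental median was -0.50 with median transcripts and -0.31 with longest transcripts. In the parental line 7 of 11 were lower in both. HSD17B7, a 3-ketosteroid reductase of the demethylation steps, went from 24.8 CPM in DMSO to 11.3 CPM in E2 in the parental line. In clone 1 it went from 22.1 to 17.1 CPM, and in clone 2 from 14.6 to 16.1 CPM. The parental E2 library was the lowest of the 6. HSD17B7 has a transcribed copy, HSD17B7P2, with 64 to 113 counts in a library against 424 to 787 for the gene, and reads shared between them could have been split.

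MSMO1, the C4-methyl oxidase, went from 387 to 218 CPM in the parental line, from 382 to 357 CPM in clone 1 and from 286 to 316 CPM in clone 2. SC5D, the lathosterol desaturase, went from 274 to 158 CPM in the parental line, from 282 to 242 CPM in clone 1 and from 215 to 228 CPM in clone 2. FDFT1, the squalene synthase, went from 743 to 410 CPM in the parental line, from 678 to 527 CPM in clone 1 and from 518 to 485 CPM in clone 2. For all of these the parental E2 library was the lowest of the 6. The same held for MVK, IDI1, FDPS, CYP51A1, TM7SF2, NSDHL, EBP, ACSS2 and INSIG1, and the share of all genes was not counted. STARD4, a carrier of cholesterol between membranes, behaved likewise, at 251 and 140 CPM in the parental line, 243 and 212 CPM in clone 1 and 211 and 223 CPM in clone 2. An antisense gene, STARD4-AS1, rose from 53 to 199 counts between the parental libraries. Since the use of strand in counting is not given in the sources used here, reads of STARD4 and STARD4-AS1 may not be separate.

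FASN, the fatty acid synthase, moved the other way, from 465 to 1213 CPM in the parental line, 756 to 1101 CPM in clone 1 and 1042 to 1169 CPM in clone 2. LSS, which closes squalene epoxide to lanosterol, went from 68.2 to 133 CPM, from 109 to 137 CPM and from 117 to 134 CPM in the same order. For both genes the parental DMSO library was the lowest of the 6, and the 3 E2 libraries lay close together and above the 3 DMSO libraries. The share of all genes with that order was not counted. TM7SF2, a C14-sterol reductase, went from 60.2 to 46.2 CPM in the parental line, 73.8 to 49.1 CPM in clone 1 and 74.3 to 53.4 CPM in clone 2, lower in E2 in 3 of 3 lines.

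Past 1.5-fold, in the single parental pair, 3 genes were higher in E2 (ACACA, the acetyl-CoA carboxylase, with FASN and LSS; 21.5% of all genes) and 6 were lower (FDFT1, HSD17B7, INSIG1, MSMO1, SC5D and STARD4; 18.8% of all genes). In clone 1 none was higher (9.57% of all genes) and 1 was lower, TM7SF2 (7.10%). In clone 2 none was higher (9.35%) and none lower (7.09%). These differences have no replicate check, and the parental counts shrank with the correction for GC content and length. With median transcripts the same 3 were higher (18.7% of all genes) and 3 were lower (FDFT1, HSD17B7 and TM7SF2, beside 17.1%). With longest transcripts 0 were higher (17% of all genes) and 1 was lower (FDFT1, beside 12.6%). The change was smaller in both clones for 18 of the 28 (64.3%) and for 64.8% of all genes. The share among the 28 was thus near that of all genes.

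Direction across lines was no more uniform than among all genes. In 4 of the 28, ACACA, FASN, LSS and MVD, the E2 library was higher in all 3 lines (28.2% of all genes). In 7 (FDFT1, FDPS, INSIG1, MVK, SCD, SQLE and TM7SF2) it was lower in all 3 (24.5%). In 5 (DHCR7, FADS1, FADS2, HMGCS1 and SREBF1) both clones moved one way and the parental line the other (13.2%), which became 3 genes with the correction from median transcripts.

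**Figure D3:**
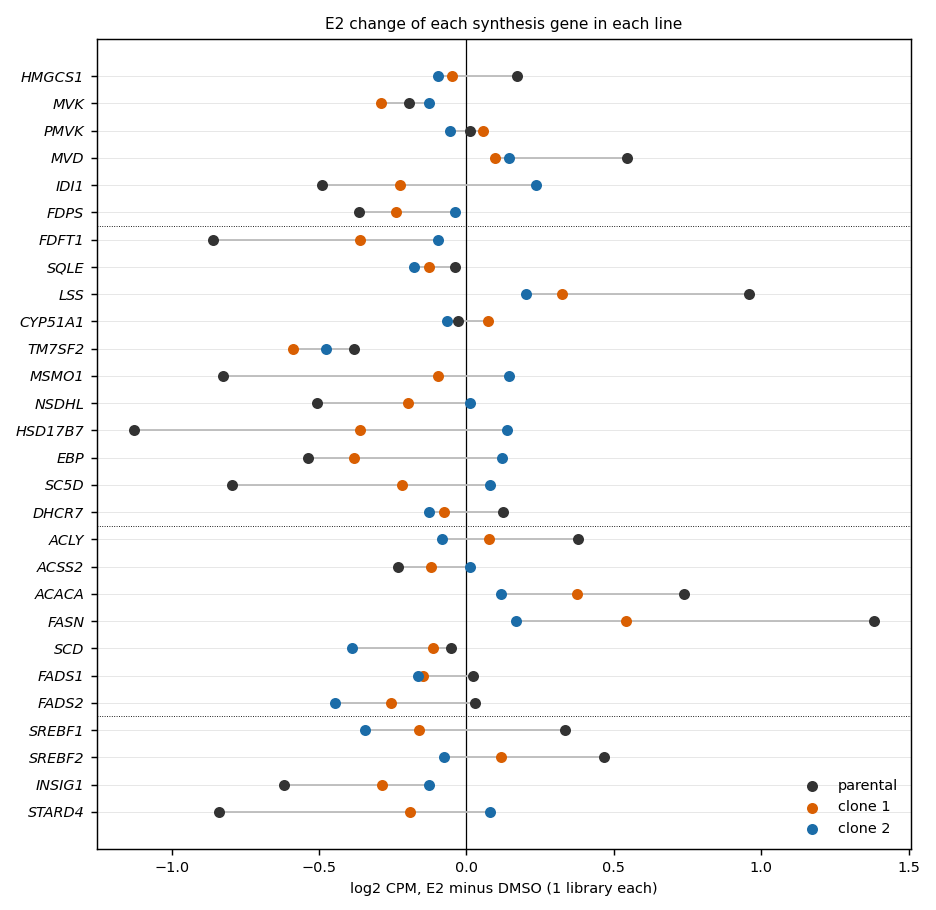
Log2 CPM in E2 minus DMSO for each gene in the parental line (black), clone 1 (orange) and clone 2 (blue), 1 pair of libraries per point; dotted lines part the role groups. The parental points spread from -1.13 (HSD17B7) to 1.38 (FASN), and those of clone 2 from -0.48 (TM7SF2) to 0.24 (IDI1).

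Over the 3 lines, none of the 28 passed the E2 test (1.13% of all genes did, by edgeR), nor with line as a replicate block (2.46%). At an unadjusted p under 0.05 there were 5 by edgeR, with and without the block, 5 by limma-voom and 6 by DESeq2. The share of all genes at that unadjusted threshold was not counted, so these counts are not read as an excess. TM7SF2 came nearest, at -0.48 (SE 0.11, adjusted p = 0.103 by edgeR's quasi-likelihood test, Benjamini-Hochberg). It passed with DESeq2 (adjusted p = 0.0118), as the only one of the 28, beside 7.14% of all genes. It also passed in edgeR with the GC and length correction, with an adjusted p of 0.0401 from median transcripts (1.60% of all genes) and 0.0404 from longest transcripts (2.64%), again alone. Without both libraries of clone 2, 6 of the 28 passed (ACACA, FASN and LSS higher, FDFT1, HSD17B7 and TM7SF2 lower), beside 21.6% of all genes. Without its DMSO library 4 passed (ACACA and FASN higher, FDFT1 and TM7SF2 lower), beside 10.9% of all genes. Both counts stood close to the share of all genes called in the same fit.

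In the clones alone none of the 28 passed (0.329% of all genes by edgeR), and DESeq2 and limma-voom also called 0 after adjustment. At an unadjusted p under 0.05 there was 1 by edgeR, with no share of all genes counted at that threshold. With clone as a replicate block, TM7SF2 was lower in E2, with a log2 difference of -0.54 (SE 0.13, adjusted p = 5.79e-04 by edgeR), beside 15.0% of all genes called. That blocked model leaves 1 residual degree of freedom and takes the spread of each gene from a fit over all genes.

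Whether the E2 change differs between the clones and the parental line was tested directly by the interaction of E2 and genotype. Without a block none of the 28 passed, and of all genes 0% did by edgeR. DESeq2 and limma-voom also called 0 of the 28. At an unadjusted p under 0.05 there were 5 of the 28 by edgeR, again with no share of all genes counted. With line as a block 6 of the 28 passed, beside 15.8% of all genes. The E2 change was more positive in the clones for HSD17B7 (1.01, SE 0.23, adjusted p = 5.66e-04), MSMO1 (0.85, SE 0.26, adjusted p = 0.0124), STARD4 (0.78, SE 0.25, adjusted p = 0.0198) and SC5D (0.72, SE 0.25, adjusted p = 0.0347), all by edgeR. It was more negative for FASN (-1.03, SE 0.27, adjusted p = 0.00277) and LSS (-0.70, SE 0.24, adjusted p = 0.0333), by the same test. The block in limma-voom called the same 6 (12.2% of all genes), and the block in DESeq2 called FASN, MSMO1, SC5D and STARD4 (5.37%). All of these share the 2 single parental libraries and 1 residual degree of freedom. In edgeR the blocked fit took the spread of each gene from a fit over all genes, so its p-values do not rest on a gene's own spread. That spread came from the clones alone, since the parental E2 change is 1 pair of libraries.

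GC content moved with these values. The E2 change in the parental line rose with GC content across all genes (Spearman 0.321 over 14607 genes) and across the 28 (0.575). The 28 share 1 pair of libraries. In clone 1 the values were 0.117 over all genes and 0.142 over the 28, and in clone 2 they were -0.0261 and -0.158. Differences between lines within a treatment were read against GC content too. In DMSO, clone minus parental gave 0.180 over all genes and 0.290 over the 28 for clone 1, and 0.310 and 0.554 for clone 2. In E2 the values were -0.268 and -0.687 for clone 1, and -0.0375 and -0.443 for clone 2. The parental DMSO library, part of every parental E2 change, had the lowest TMM factor (0.899) and the fewest genes detected (17755). Its part in these values was not tested. FASN (65.3% GC) and LSS (58.3%) are GC-rich, while MSMO1 (38.1%), SC5D (38.6%), STARD4 (40.6%) and HSD17B7 (44.3%) are lower. Not all of the 28 followed this order. TM7SF2 (62.7% GC), MVK (60.5%) and EBP (55.7%) were lower in E2 in the parental line, by -0.38, -0.19 and -0.54 on the log2 scale. HMGCS1 (41.8%) was higher, by 0.17. Whether GC content causes these changes was not tested. Length gave no single picture: over the 28, the Spearman value of the parental E2 change with length was -0.184 with median transcripts and 0.567 with longest ones, and with longest ones clone 1 had 0.556 and clone 2 -0.0695. The fifth of all genes lowest in GC content had a median parental E2 change of -0.27 and the fifth highest had one of 0.34 when GC content was likewise read as the median over transcripts.

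When each library's trend in GC content and length was removed beside the block, with each gene's GC content and length taken as the median over its GENCODE v29 transcripts, 3 of the 28 passed (13.1% of all genes): FASN (-0.77, adjusted p = 0.00928 by edgeR), HSD17B7 (0.77, adjusted p = 0.00648) and ACACA (-0.66, adjusted p = 0.0231). After these results were seen, the correction was repeated with the longest transcript of each gene, protein-coding ones first, because the medians were short for long genes, such as 424 bases for FASN against 8565. Then 1 of the 28 passed (8.42% of all genes), FDFT1 (0.52, adjusted p = 0.0491 by edgeR), and FASN (-0.33, adjusted p = 0.238) and HSD17B7 (0.48, adjusted p = 0.112) did not. None of the 28 was called in all of the 3 blocked edgeR fits. All 6 genes called without the correction kept their direction in both corrected fits, each with a smaller value.

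**Figure D4:**
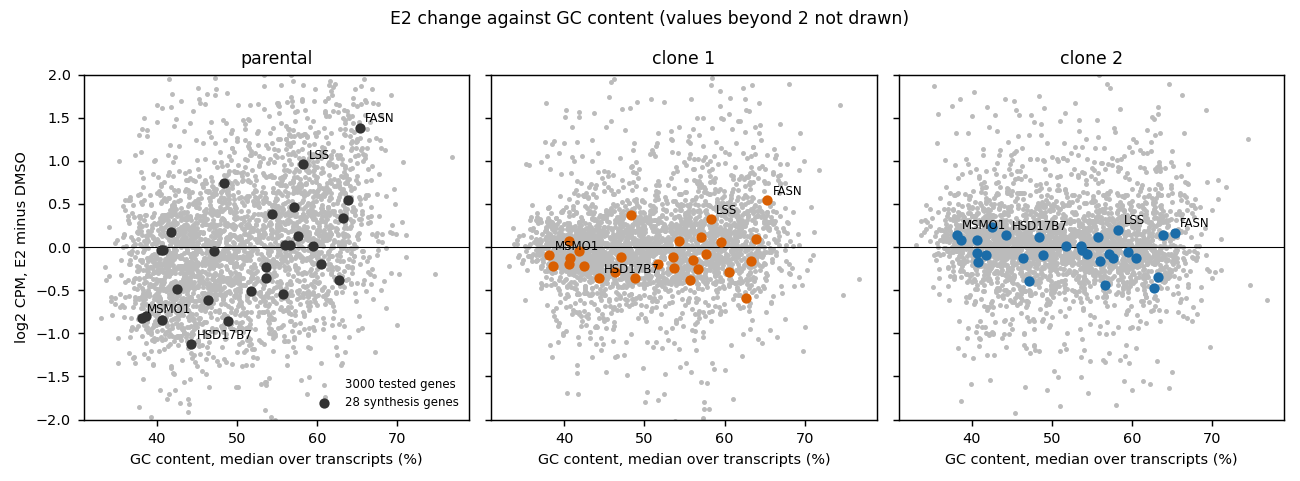
E2 minus DMSO in log2 CPM against GC content, as the median over a gene's transcripts in percent, in each line; grey points are 3000 genes drawn from those tested and coloured points are the 28 genes. The slope is visible in the parental line (Spearman 0.575 over the 28) and not in the clones (0.142 and -0.158).

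**Figure D5:**
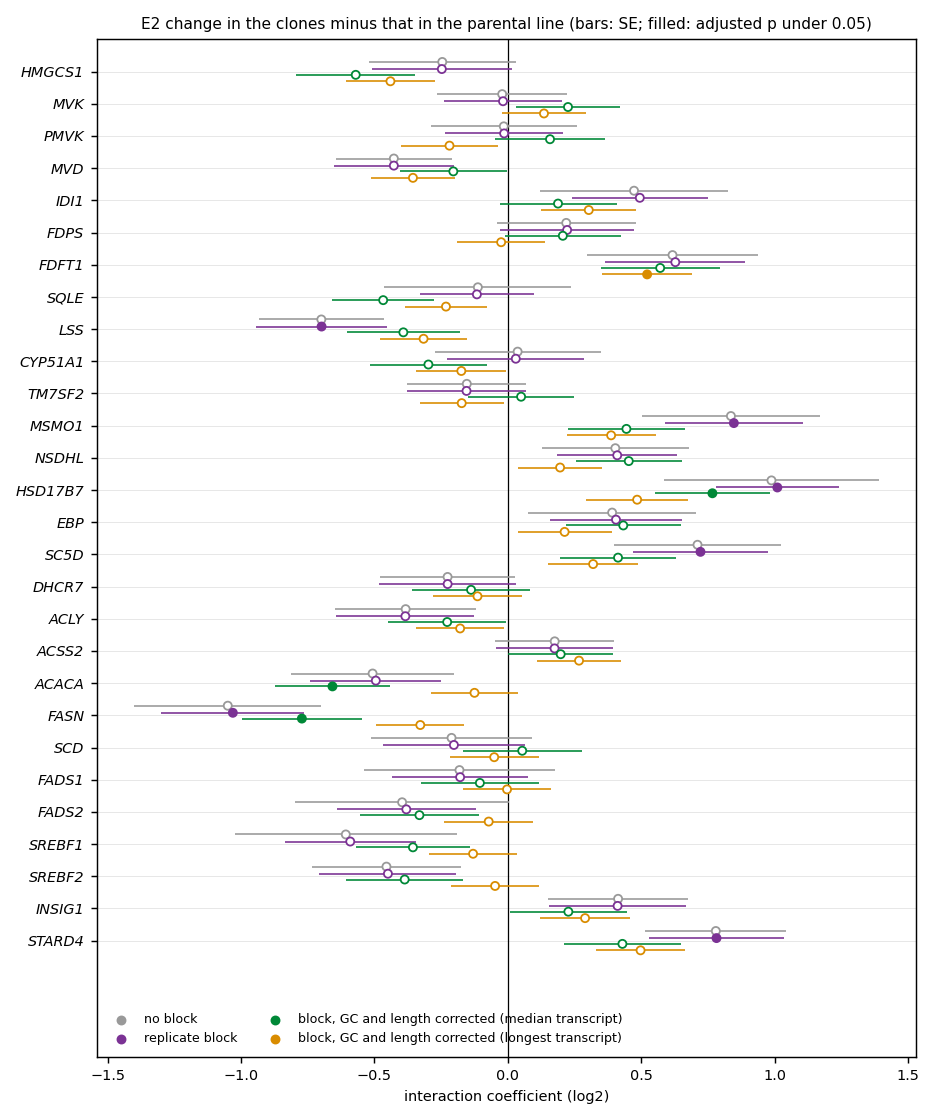
Interaction of E2 and genotype for each gene, on the log2 scale with its SE, without a block (grey), with line as a block (purple), and with the block and the GC and length correction from median (green) or longest (orange) transcripts; filled points have an adjusted p under 0.05. The filled purple points are FASN, HSD17B7, LSS, MSMO1, SC5D and STARD4, and FDFT1 is the only filled orange point.

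The 2 clones were also compared with each other, with treatment in the model. SREBF1 was higher in clone 2 than in clone 1 (0.50, SE 0.14, adjusted p = 0.00424 by edgeR). FADS2, the delta-6 desaturase, was at 390 and 397 CPM in the parental line, 389 and 326 CPM in clone 1 and 561 and 412 CPM in clone 2. It was higher in clone 2 by 0.45 (SE 0.16, adjusted p = 0.0275, same edgeR test). SQLE was at 36.4 and 35.4 CPM in the parental line, 44.8 and 41.0 CPM in clone 1 and 34.8 and 30.7 CPM in clone 2, lower in clone 2 with a log2 difference of -0.38 (SE 0.13, adjusted p = 0.0244, same edgeR test). These 3 of 28 stood beside 18.3% of all genes, in a model with 1 residual degree of freedom. In edgeR that model also took the spread of each gene from a fit over all genes, so its p-values do not rest on a gene's own spread. DESeq2 called FADS1, FADS2 and SREBF1 (6.88% of all genes), with SQLE at an adjusted p of 0.155.

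The other genes of the pathway were read from lists of 17 genes that control or handle sterols, 7 of LXR (the oxysterol receptors) and its targets, and 20 more enzymes of fatty acids and glycerolipids. In the E2 test over 3 lines 0 of the 17 passed. Of the 7, 1 was lower, the sterol exporter ABCG1 (-1.97, SE 0.32, adjusted p = 0.0476 by edgeR), at 1.58, 2.05 and 1.46 CPM in DMSO and 0.347, 0.410 and 0.548 CPM in E2. Of the 20, 1 was lower, the desaturase SCD5 (-0.99, SE 0.11, adjusted p = 0.0149 by edgeR), at 105, 156 and 157 CPM in DMSO and 52.7, 83.5 and 75.0 CPM in E2, in the order parental line, clone 1 and clone 2. Both were lower in E2 in 3 of 3 lines, as were 24.5% of all genes. ABCG1 was low throughout, at no more than 2.05 CPM in any library. SCD, the desaturase among the 28, differed by -0.19 (SE 0.15, adjusted p = 0.464, same edgeR test). None of the 44 passed the knockout test or the interaction without a block by edgeR. With the block, the log2 interaction was 0.76 for the ubiquitin ligase RNF139, 0.87 and 0.78 for NPC2 and LIPA, which free cholesterol in lysosomes, 1.14 for SMPDL3A and 0.68 for HSD17B12, an enzyme of fatty acid elongation. These 5 of 44 passed the blocked edgeR test, 3 of the 17, 1 of the 7 and 1 of the 20, beside 15.8% of all genes in that fit. In the clones alone with the block, ABCA1 (-0.81), ABCG1 (-1.87) and SCD5 (-0.998) were lower in E2 and LPIN1 (0.37) higher, in a fit that called 15.0% of all genes. None of these 4 passed in the clones without the block, where edgeR's adjusted p was 0.0706 for SCD5, 0.242 for ABCG1, 0.329 for ABCA1 and 0.667 for LPIN1. Between the clones, 2 of the 17, 0 of the 7 and 5 of the 19 tested of the 20 passed, beside 18.3% of all genes.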

How the data were processed

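Poly(A)-selected libraries had been made with a stranded kit, per the labels' protocols. The authors deposited integer counts of each gene in each library, and a second table of normalized signal that equals the count divided by a median-ratio size factor. HISAT2, SAMtools, Subread, DESeq2 and build hg19 are named in the submitters' processing notes without roles; annotation and use of strand are not given in the sources used here. The deposited counts were tested; the normalized signal served as an alternative scaling.

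Counts were tested over the whole table in R 4.3.3 with edgeR 4.0.16 (TMM, filterByExpr, quasi-likelihood test, Benjamini-Hochberg, adjusted p of 0.05), leaving 15611 genes (14881 for the 4 clone libraries). Single-library differences are log2 CPM with a prior count of 2. Clone numbers in the labels pair the libraries of a line: the difference between clones correlated at 0.626 between treatments across genes (0.698 over the 28). The replicate block is line as a fixed factor, or for the knockout effect a random effect in limma 3.58.1 (consensus correlation 0.113). Alternatives were median-ratio scaling, other filters on low counts (none, or 10 in every library), DESeq2 1.42.0, limma-voom, other prior counts, leaving out lines and libraries, and removal of lowess trends (span 0.3) in GC content and length. The fits were also run on simulated counts with known changes and no difference between the clones. That run does not bear on how reliable the calls in these data are.

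The correction was first run with medians over GENCODE v29 transcripts, which is the version counted as planned. The longest-transcript version, and the block in limma-voom and in DESeq2 for the interaction, were chosen after seeing the data. Genes given by library were those called with or without the block, SREBF1, SREBF2 and INSIG1, and in each role group the one with the largest parental E2 change, the largest difference between clones and parental line, or the highest mean level. The 28 genes and the lists were chosen with earlier results of these data known.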

Additional observations from a re-analysis of the deposited data

Results flagged for a closer look

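With line as a replicate block, the test of the interaction called 6 of the 28 genes (21.4%), beside 15.8% of all genes. The E2 change in the clones minus that in the parental line was -0.70 for LSS, 0.85 for MSMO1 and 1.01 for HSD17B7. It was 0.72 for SC5D, -1.03 for FASN and 0.78 for STARD4, on the log2 scale. None of the 6 passed without the block by edgeR's quasi-likelihood test, nor did any other gene (0% of all genes). With the block and the GC and length correction, FASN and HSD17B7 of the 6 still passed with median transcripts (13.1% of all genes). With longest transcripts none of the 6 did (8.42% of all genes), and FDFT1 alone of the 28 passed.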

How the results depend on the processing

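The knockout test called 0 of the 28 under each alternative run, all 8 leave-outs included (0 to 0). For E2 over 3 lines, where 0 were called, DESeq2 called 1 (TM7SF2), the GC and length correction called 1 with median transcripts and 1 with longest transcripts, the replicate block with the correction called 1 and 2 (FADS2 and TM7SF2) in that order, and leave-outs called 0 to 6. For the clones alone, 0 became 1 with the replicate block, 1 with the block in limma-voom, and 2 and 3 with the block and the correction from median and longest transcripts; leave-outs called 0. For the interaction, 0 became 6 with the replicate block and 6 and 4 with the block in limma-voom and DESeq2. The block with the correction gave 3 from median transcripts and 1 from longest transcripts, so the calls depend on how transcript GC content and length are read; leave-outs called 0. Of all genes, the E2 test called 1.13%, or 7.14% with DESeq2, and 1.60% and 2.64% with the correction from median and longest transcripts. The blocked fit of the clones alone called 15.0% of all genes. For the interaction, the block called 15.8%, or 12.2% in limma-voom and 5.37% in DESeq2. With the correction it called 13.1% and 8.42% in the same order of transcripts. The counts of the 28 are to be read beside these shares. No share of all genes was counted for E2 over 3 lines with the block and the correction. None was counted either for the clones alone with the block in limma-voom, or with the block and the correction. The counts of those fits are therefore not read as a result about the 28. The median parental E2 change of the 28 moved from -0.04 to -0.16 and -0.21 with the 2 corrections. No named gene reversed a called direction. The interaction could not be fitted without a line or a parental library, nor the clone contrast without a library. With 1 parental library per treatment, no parental change has a replicate check, and the cause of each moved count was not tested.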
